A study of Homo sapiens with 4 samples.

Results

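The mitochondrial chromosome was represented by 22 transcript clusters, the gene-level probe sets of the array, out of 74341 probe sets in all. They were taken as every identifier whose chromosome field reads 0M, with no filter on signal. No pair of them held identical values, so that they gave 22 measurements. Expression had been measured on 4 arrays, 2 for cells that had received the hsa-miR-182-5p mimic, a synthetic RNA that supplies the mature microRNA, and 2 for cells that had received a scrambled control. Both groups were labelled as HL-60, a human promyelocytic leukaemia line, differentiated towards neutrophils with 1.3% DMSO and harvested 24 hours after transfection. The study set the mimic against the scrambled control to find transcripts that differ when this microRNA is supplied. All values are log2 signals as the authors deposited them, so that a difference of 1 is a doubling.

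The human mitochondrial genome is a small circular DNA that encodes core subunits of the respiratory chain and of ATP synthase, and the ribosomal and transfer RNAs that translate them. Its strands are copied into long precursors by a dedicated polymerase, POLRMT, with the packaging and initiation factor TFAM, and the precursors are cut into single RNAs, largely at the transfer RNAs. Its RNAs are therefore made together and differ mainly in processing and stability. Mature neutrophils are known for few mitochondria and a reliance on glycolysis.

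The genes behind the 22 clusters are not named here. The current RefSeq annotation lists 37 mitochondrial genes, made up of 13 protein-coding, 22 transfer RNA and 2 ribosomal RNA genes. The platform annotation used for gene names held 0 of the 22 identifiers, so no cluster was assigned to a gene. The clusters are called below by their place in the order of mean signal over the 4 arrays, from the brightest, and 4 also by identifier. Probe sets differ in how strongly they respond, so a place in that order is not an order of RNA amounts.

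The agent of the study is shown because it defines the comparison. In the sequence from RefSeq, at chr7:129770447-129770470 on the minus strand of GRCh38.p14 in the gene MIR182, capitals mark the seed, bases 2 to 8, which pairs with target RNAs.
hsa-miR-182-5p: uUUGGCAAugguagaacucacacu
The array did not measure the mature microRNA. The transcript cluster of its gene had log2 signals of 4.61 and 4.69 in the mimic arrays, against 4.60 and 4.45 in the scrambled control arrays. These levels lay above only 30.2% of nuclear measurements, and they do not show whether the mimic entered the cells.

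The labelled cell type was checked against marker genes through the same annotation. Of 11 neutrophil markers, 10 were measured, at mean log2 signals from 5.14 for CXCR1 to 6.46 for CSF3R. These levels stood above 41.7% to 69.8% of nuclear measurements, in the middle of the table. The 5 promyelocyte markers, granule proteins that HL-60 cells are known for, ranged from 5.61 for CTSG to 6.91 for PRTN3, above 51.9% to 77.8% of nuclear measurements, and MPO was at 6.75. Neither set was prominent on any array, which goes against the label for these markers. Of leukocyte genes looked up later, LYZ stood above 99.7% of nuclear measurements, PTPRC above 94.5% and SPI1 above 84.5%. The epithelial keratin KRT18 stood above 98.1%. The cells are called here by their label alone. The monocyte markers CD14 and CSF1R were at 5.37 and 6.22. None of the 17 neutrophil, promyelocyte and monocyte markers passed the test between the groups (limma, 0 at an unadjusted p under 0.05, smallest adjusted p 0.836).

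The 22 mitochondrial clusters were among the brightest features of the table on all 4 arrays. Their median log2 signal was 12.40 and 12.46 in the mimic arrays, against 12.43 and 12.35 in the scrambled control arrays. Over members the signal ran from 9.97 to 13.10 and from 9.92 to 13.14 in the mimic arrays, and from 10.01 to 13.08 and from 10.11 to 13.10 in the control arrays. All 22 exceeded 8.61, the 95th percentile of the 62357 distinct nuclear measurements, whose own median was 5.52. The dimmest member stood above 98.8% of them and the median member above 99.96%.

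Counted from the top of each array, mitochondrial clusters filled 4 and 5 of the 10 brightest places in the mimic arrays, and 4 and 5 in the control arrays. Among the 50 brightest they held 15 places on every array, and among the 100 brightest 16. The brightest member measured 13.10 and 13.14 in the mimic arrays and 13.08 and 13.10 in the scrambled control arrays.

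The members formed a dense bright group and a dimmer tail. Of the 22, 15 had a mean signal of 12 or more, and they spanned only 12.35 to 13.11. The next member, the 16th, measured 11.90 and 12.01 in the mimic arrays, against 11.98 and 11.92 in the control arrays. The 17th measured 11.25 and 11.23 in the mimic arrays, against 11.29 and 11.18 in the control arrays. The 18th measured 11.05 and 11.14 in the mimic arrays, against 11.15 and 11.02 in the control arrays. For these 3 members the groups overlapped. The remaining 4 members had mean signals below 11, the brightest of them at 10.87.

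**Figure D1:**
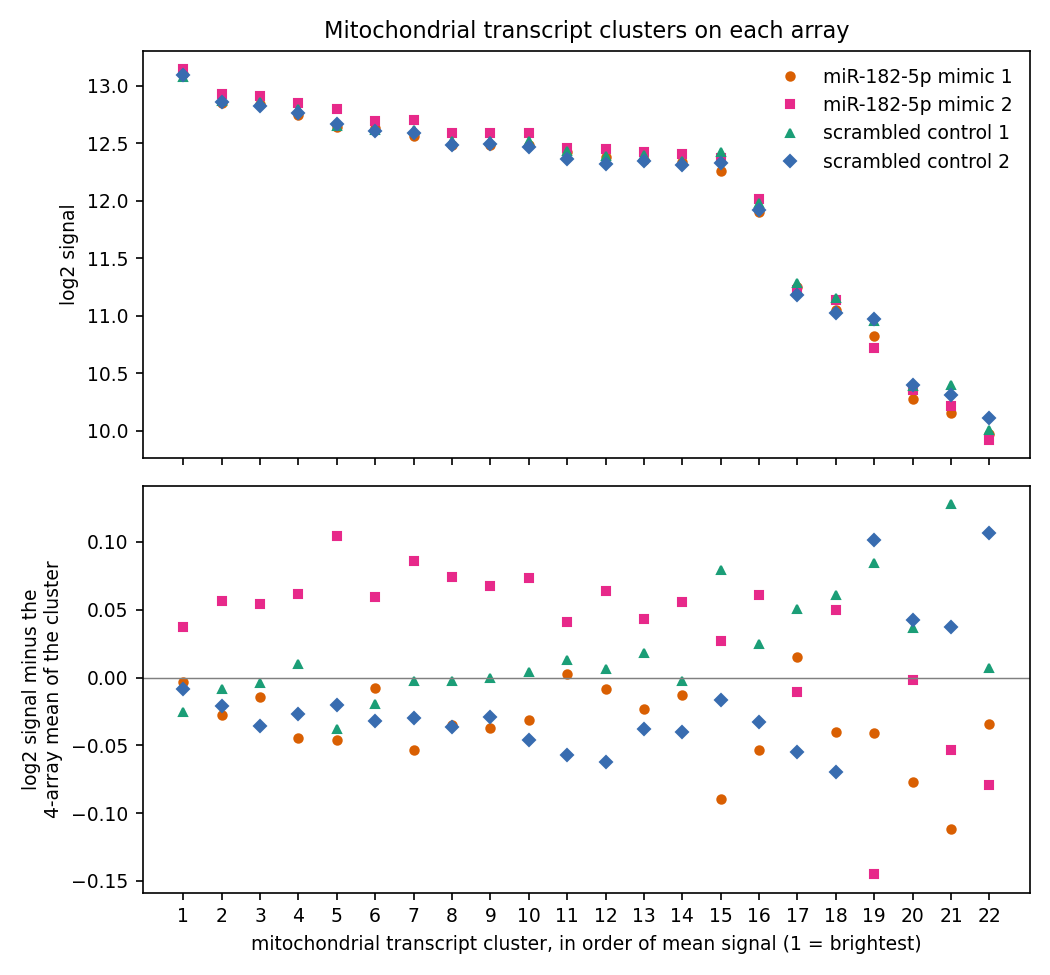
Log2 signal of each of the 22 mitochondrial transcript clusters on the 4 arrays (upper panel) and the same signal minus the cluster's own mean over the 4 arrays (lower panel), with clusters in order of mean signal on the horizontal axis. Each symbol is 1 array. Mimic 2 is the highest array for 14 of the 15 clusters with a mean signal of 12 or more, and for the 4 dimmest each mimic array is under each control array.

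No mitochondrial cluster passed the test between mimic and scrambled control (limma, 0 of 22 at an adjusted p under 0.05 over all 67539 transcript clusters, smallest adjusted p of a member 0.502). The same held for all 65866 distinct measurements, of which 0% passed. That count depended on single arrays: without control array 2, 1724 of all transcript clusters passed the adjusted threshold, and without control array 1, 5, in limma fits that took the spread from the mimic arrays alone, while 0 members passed in either. At an unadjusted p under 0.05, 2 members were lower in the mimic arrays and 0 were higher. Over all distinct measurements 7.23% were lower and 0.812% were higher at that level, so that the members' share of lower ones, 2 of 22, is close to the background. The background itself moved with the scaling: over all transcript clusters 5282 were lower and 542 higher as deposited, 2735 and 1688 after quantile normalization, and 2881 and 1420 with equal array medians. With 2 arrays a group the precision is low: the members' standard errors were 0.056 to 0.071, and their 95% intervals (limma) reached from -0.34 at the lowest bound to 0.23 at the highest. An exact permutation test of 1 value with 2 arrays against 2 cannot give a two-sided p below 0.333. The labels do not state that samples of 1 group came from different cultures. The p-values therefore reflect only how far these samples lie apart, and that distance may be technical. A change in mitochondrial RNA per cell and a change in the share of cells rich in it cannot be told apart in such bulk samples.

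The difference of mimic minus control was positive for 17 members and negative for 5. Among all 62357 distinct nuclear measurements 20614 were positive, and among the 944 within 0.25 log2 units of a member 499 were. The members' median difference was 0.030, against -0.029 over all distinct nuclear measurements and 0.035 over nuclear measurements of matched signal. For that matched median each member was set beside the nuclear measurements within 0.25 log2 units of its mean signal, 2 to 442 of them per member. The median of each member's matches was taken, and the median of these over members. The members' median thus lay beside that of bright nuclear measurements, on the other side of 0 from the table as a whole. That contrast depended on the scaling: after quantile normalization the members' median was 0.00032 and that of all transcript clusters 0.014, and with equal array medians they were 0.074 and 0.015. It rested on mimic array 2: without that array the median was -0.016, with 7 members positive and 15 negative, and without mimic array 1 it was 0.068.

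With all arrays kept, the bright group and the 4 members below 11 differed in sign. The boundary of 11 was not planned, so this split was not a test. The members between 11 and 12 were positive, at 0.00775, 0.00445 and 0.00915. Of the 15 members at 12 or more, 14 had a positive difference, with a median of 0.039. Among the 54 nuclear measurements at 12 or more, 39 were positive, with a median of 0.034. After quantile normalization of the deposited values, 10 of the 15 were positive and the median was 0.0060. Without mimic array 2 only 6 of the 15 were positive and the median was -0.013, so the sign of the bright group rested on that array. All 4 members below 11 had a negative difference, with a median of -0.14, and all 4 were also negative under both other scalings. As their groups did not overlap, leaving out an array could not turn their sign. Of the 774 nuclear measurements within 0.25 of these 4, 362 were negative and the median was 0.0056. Whether these 4 members differ from those nuclear measurements was not tested.

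**Figure D2:**
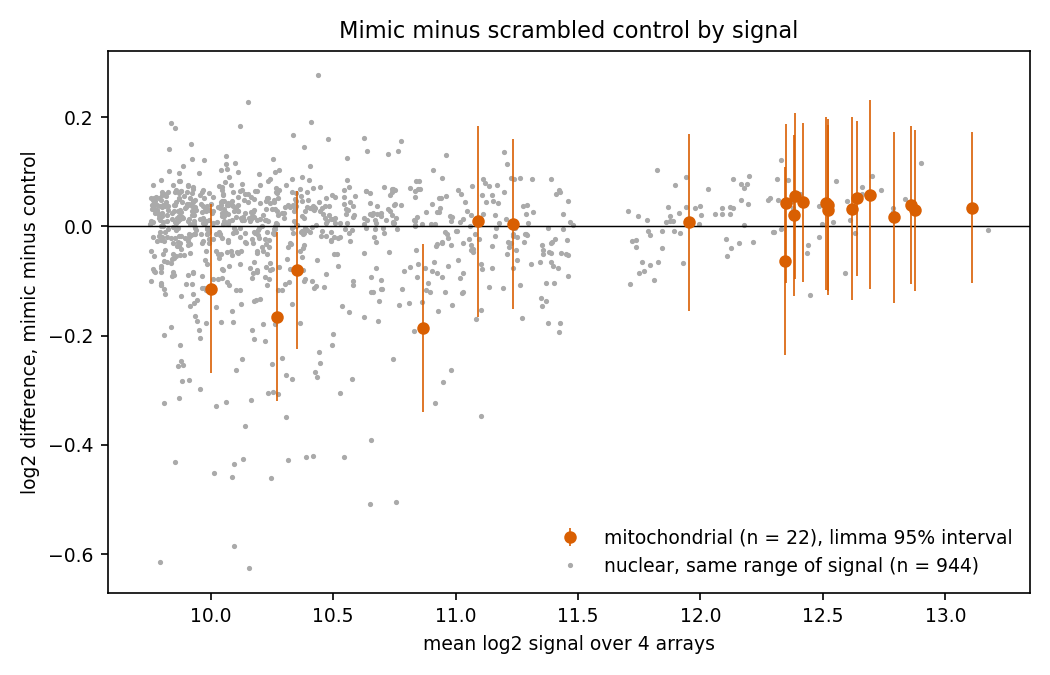
Log2 difference of mimic minus scrambled control (vertical axis) against mean log2 signal over the 4 arrays (horizontal axis) for the 22 mitochondrial clusters, with limma 95% intervals, and for the 944 nuclear measurements within 0.25 of a member. The 4 members below 11 lie under 0, the members at 12 or more lie close to 0 with 14 of 15 above it, and the intervals of 20 members include 0.

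The clusters with the smallest p were both in the dim tail. TC0M000017.hg.1, the 19th in signal, measured 10.83 and 10.72 in the mimic arrays, against 10.95 and 10.97 in the scrambled control arrays. Each mimic array was under each control array. Its mean was 10.78 ± 0.074 in mimic and 10.96 ± 0.012 in control arrays (SD, n = 2 each), a difference of -0.19 (SE 0.063, limma unadjusted p = 0.0256, adjusted p = 0.502), or 1.14-fold lower.

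TC0M000008.hg.1, the 21st, measured 10.16 and 10.22 in the mimic arrays, against 10.40 and 10.31 in the scrambled control arrays. Again the groups did not overlap. Its difference was -0.165 (SE 0.063, limma unadjusted p = 0.0401, adjusted p = 0.545), 1.12-fold lower.

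The other members below 11 were ordered the same way. The 20th measured 10.28 and 10.35 in the mimic arrays, against 10.39 and 10.40 in the control arrays. The 22nd and dimmest measured 9.97 and 9.92 in the mimic arrays, against 10.01 and 10.11 in the control arrays. Neither group of arrays overlapped the other for these members, whose differences were -0.079 and -0.11 (limma adjusted p = 0.826 and 0.709). Such an order, with all mimic arrays lower, was found for 4 of 22 members, while 28.0% of all distinct measurements and 19.7% of the 944 nuclear measurements of matched signal were so ordered. The 4 became 2 after quantile normalization, 3 with equal array medians, 7 without control array 2 and 11 without mimic array 2.

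On the positive side TC0M000027.hg.1, the 12th, measured 12.38 and 12.45 in the mimic arrays, against 12.39 and 12.32 in the scrambled control arrays. The groups overlapped, and the difference was 0.056 (SE 0.062, limma adjusted p = 0.925). TC0M000010.hg.1, the 6th, measured 12.63 and 12.70 in the mimic arrays, against 12.62 and 12.61 in the control arrays. Here the groups did not overlap, but the lower mimic array and the higher control array nearly touched, and the difference was 0.051 (SE 0.058, limma adjusted p = 0.927). This cluster and the brightest were the 2 of 22 members with both mimic arrays above both control arrays, an order found for 8.15% of all distinct measurements and for 22.5% of the 944 nuclear measurements of matched signal. With equal array medians 13 members were so ordered, and after quantile normalization 0.

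For most members the arrays of the mimic group differed from each other more than the groups did. Mimic array 2 was above mimic array 1 for 19 of 22 members, and the median of mimic 2 minus mimic 1 was 0.074. For 17 of 22 members the gap within the mimic pair was larger than the difference between the groups, but for 0 of the 4 below 11. That order was also common elsewhere, at 34997 of 62357 distinct nuclear measurements and 535 of the 944 of matched signal. At 12 or more it was found for 14 of 15 members, against 22 of 54 nuclear measurements. The gap compares single arrays and the difference compares group means, so the count alone does not set the members apart. The 5th member showed the largest gap, with 12.645 on mimic array 1 and 12.80 on mimic array 2, against 12.65 and 12.67 on the control arrays. All 15 members at 12 or more had mimic array 2 above mimic array 1, by 0.038 to 0.15.

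Nuclear measurements of the same signal showed that tilt less or not at all. For the 2nd to the 10th member, mimic array 2 was above for 60.7% to 88.9% of the nuclear matches, 9 to 28 per member. The medians of these matches were 0.014 to 0.019. For the brightest member it was above for 0% of 2 matches. From the 11th member to the 22nd it was above for 28.7% to 46.9% of the matches. At 12 or more, mimic array 2 was above mimic array 1 for 28 of 54 nuclear measurements, with a median of 0.0036, against 0.084 for the 15 members. Over the 944 nuclear measurements within 0.25 of any member it was above for 34.2%, with a median of -0.030. Of these 944, 774 lay within 0.25 of the 4 members below 11. Over all members the median size of the mimic gap was 0.080, against 0.038 for matched nuclear measurements, a ratio of 2.12 (1.50 to 2.55 under other scalings, windows and nuclear sets). The gap was larger than the matched nuclear median for 18 of 22 members. After quantile normalization mimic array 2 was still above mimic array 1 for 16 members. No test of this difference was made, since the members share their source and are not replicates.

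In the control pair no such excess was seen. The median size of the gap was 0.037, against 0.043 for matched nuclear measurements, a ratio of 0.863 that lay between 0.804 and 1.24 under other scalings, windows and nuclear sets, and 12 of 22 members exceeded their matched median. Control array 1 was above control array 2 for 17 of 22 members, with a median of 0.035. The largest control gap was that of the 18th member, at 0.13. At 12 or more, control array 1 was above control array 2 for 13 of 15 members, against 21 of 54 nuclear measurements.

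**Figure D3:**
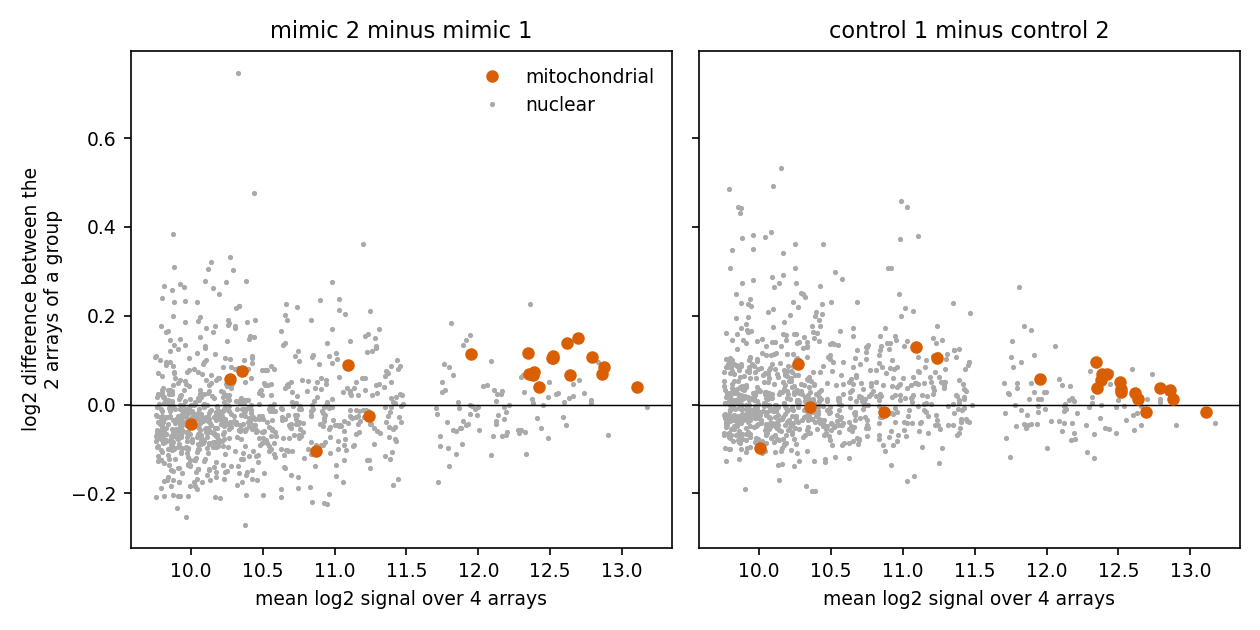
Log2 difference between the 2 arrays of a group (vertical axis) against mean log2 signal over the 4 arrays (horizontal axis), for mimic 2 minus mimic 1 (left) and control 1 minus control 2 (right). Orange points are the 22 mitochondrial clusters and grey points the 944 nuclear measurements within 0.25 of a member. In the left panel 19 of 22 mitochondrial clusters lie above 0, and in the right panel 17 of 22.

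Seen by array, mimic array 2 was the highest of the 4 for 15 members, and mimic array 1 was the highest for 0. The lowest array was mimic array 1 for 9 members, mimic array 2 for 2, control array 1 for 1 and control array 2 for 10. Among the 15 members at 12 or more, mimic array 2 was the highest for 14, and the lowest was mimic array 1 for 6 and control array 2 for 8. Relative to each member's own mean, the median deviation was -0.035 and 0.055 on the mimic arrays, and 0.0069 and -0.031 on the control arrays. For matched nuclear measurements it was 0.016 and 0.0091 on the mimic arrays, and -0.015 and -0.0058 on the control arrays. The poly-A control probe sets, which follow RNA added before labelling, had medians of 6.98 and 6.90 on the mimic arrays and 7.10 and 7.33 on the control arrays. Their part in the members' differences was not tested.

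A nuclear identifier carried the values of a mitochondrial member. The 15th member, at 12.26 and 12.37 in the mimic arrays and 12.425 and 12.33 in the control arrays, had the same value on all 4 arrays as a transcript cluster of chromosome 11. Such a measurement cannot be given to either chromosome. It was the only one of the 15 bright members with a negative difference, -0.063 (SE 0.070, limma adjusted p = 0.925), and mimic array 1 was its lowest array. It was left out of the nuclear measurements used for matching.

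Copies of mitochondrial sequence also lie in the nuclear genome. The MT-RNR2-like genes resemble the gene of the large mitochondrial ribosomal RNA, and 8 of the 10 had a transcript cluster of their own on the array. These genes were looked up after the array pattern of the members had been seen. None passed the test (limma, 0 at an unadjusted p under 0.05, smallest adjusted p 0.649), and their median difference of mimic minus control was 0.098. MTRNR2L9, at 10.39 and 10.54 in the mimic arrays and 10.43 and 10.27 in the control arrays, and MTRNR2L2, at 9.34 and 9.72 in the mimic arrays and 9.47 and 9.35 in the control arrays, were the brightest. In both, mimic array 2 was the highest of the 4 arrays.

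Mimic array 2 was above mimic array 1 for 7 of the 8 MT-RNR2-like genes, with a median of 0.13, and control array 1 was above control array 2 for 6. The exception for the mimic pair was MTRNR2L10, with 4.15 and 4.10 in the mimic arrays and 4.10 and 3.91 in the control arrays. Over all distinct nuclear measurements these orders were found for 50.6% and 42.7%. No share at the signal of the 8 genes was computed. The mimic order was not particular to them. It was also found for 5 of 5 promyelocyte, 2 of 2 monocyte and 5 of 10 neutrophil markers, with medians of 0.066, 0.069 and -0.0012. The control order was found for 0, 0 and 1 of these markers. None of the 8 MT-RNR2-like genes shared all its values with another identifier, and whether their probes respond to mitochondrial RNA was not tested.

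**Figure D4:**
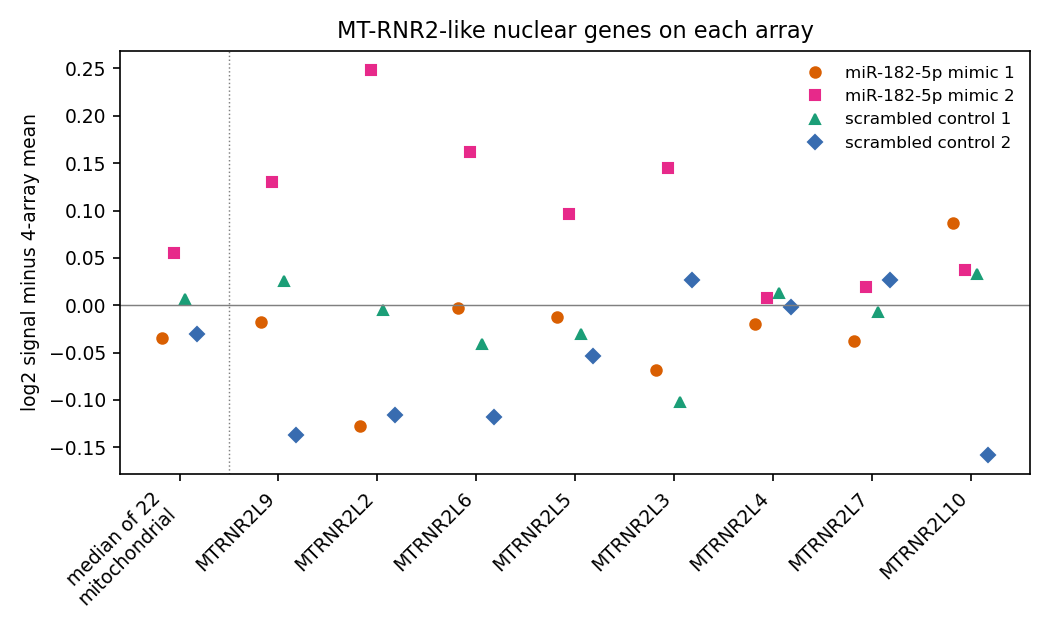
Log2 signal minus the 4-array mean (vertical axis) for 8 MT-RNR2-like nuclear genes, in order of signal, with the median deviation of the 22 mitochondrial clusters at the left. Each symbol is 1 array. Mimic 2 lies above mimic 1 for the mitochondrial median and for 7 of the 8 genes.

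Nuclear genes that act on mitochondrial RNA were measured with named clusters. All 6 genes of mitochondrial transcription were measured, and none passed the test (limma, 0 at an adjusted p under 0.05 and 0 at an unadjusted p under 0.05, smallest adjusted p 0.845). Their median difference was -0.0096, against -0.029 over all transcript clusters. TFAM measured 8.18 and 8.16 in the mimic arrays, against 8.12 and 8.13 in the scrambled control arrays, a difference of 0.043 (SE 0.055). The groups did not overlap, an order found for 8.15% of all distinct measurements, but the difference was smaller than its standard error. MTERF1, a factor that binds the mitochondrial DNA to end transcription, had the opposite order, with 5.29 and 5.33 in the mimic arrays and 5.35 and 5.40 in the control arrays. That order was found for 28.0% of all distinct measurements. The MTERF1 difference of -0.072 (SE 0.058) was larger in size than that of TFAM. So was that of the elongation factor TEFM, -0.079 (SE 0.072), whose groups overlapped.

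POLRMT measured 8.36 and 8.21 in the mimic arrays, against 8.23 and 8.35 in the control arrays. Its groups overlapped, and mimic array 1 was its highest array. TFB2M, the factor that helps the polymerase open the promoter, measured 8.46 and 8.42 in the mimic arrays, against 8.49 and 8.42 in the control arrays. Of the 6 genes, only MTERF1, which was found under its older symbol, had mimic array 2 above mimic array 1. Over all distinct nuclear measurements that order was found for 50.6%.

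Of 11 genes that process or stabilise mitochondrial RNA, 9 had a cluster of their own, and none passed the test (limma, 0 at an unadjusted p under 0.05, smallest adjusted p 0.866). Their median difference was 0.014. LRPPRC, which holds mitochondrial messenger RNAs stable together with SLIRP, measured 9.38 and 9.34 in the mimic arrays, against 9.30 and 9.29 in the control arrays. SLIRP measured 10.08 and 10.03 in the mimic arrays, against 10.02 and 10.02 in the control arrays. In both, and in the RNA-degrading enzyme PNPT1, the mimic arrays lay above the control arrays, by 0.065, 0.034 and 0.047 on the log2 scale. Over all distinct measurements that order was found for 8.15%. Among nuclear measurements in the members' range of signal it was found for 22.5%, but of these genes only SLIRP lay in that range. For LRPPRC and PNPT1 no share at matched signal was computed. The difference furthest from 0 among the 9 was negative, -0.074 (SE 0.073) for FASTKD3, and FASTKD1 and FASTK also had negative differences, of -0.022 and -0.0061. Mimic array 2 was above mimic array 1 for 1 of these 9 genes, with a median of -0.046, so that they did not share the tilt of the mitochondrial clusters. Nuclear measurements in the members' range of signal also leaned that way, with mimic array 2 above for 34.2% and a median of -0.030. Over all distinct nuclear measurements it was above for 50.6%.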

How the data were processed

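RNA from 4 samples was labelled with an Affymetrix whole-transcript kit, and all samples had a RIN of at least 7, per the labels' protocols. The authors deposited log2 signals for each probe set. Per the submitters' processing notes RMA and Partek were used (no versions stated), and per the labels Expression Console. RMA corrects background, equalises probe distributions between arrays and summarises probes, which can compress differences at the bright end. The array number, 2 a group, limits the precision.

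The difference of mimic minus control was fitted to all 67539 transcript clusters in limma 3.58.1 under R 4.3.3, with default lmFit and eBayes, no covariate, no signal filter and Benjamini-Hochberg adjustment at 0.05. Rows identical on all 4 arrays counted once in descriptions. The fit was tested on simulated data with independent errors and no effect shared across an array. That simulation therefore says nothing about array-wide shifts in the real data. Gene names came from the platform annotation: 23781 transcript clusters had 1 symbol, 1543 had several and were not named, and 42215 were not listed. Sequence came from RefSeq. Alternatives were a median filter, 2 scalings, the series value table, identical rows removed, a trend and robust prior, a replicate block, other matching windows and leaving out each array. Named clusters were the 2 per direction with the smallest unadjusted p. The members and lists were chosen with earlier results of these data known.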

Additional observations from a re-analysis of the deposited data

How the results depend on the processing

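The count of 0 members past the adjusted threshold was 0 under every alternative run, and with 1 array left out. The 2 members lower at an unadjusted p under 0.05 became 1 after quantile normalization, 0 with equal array medians, 1 with the replicate block, and 0 to 1 when single arrays were dropped. With the crossed replicate block, chosen after seeing the data because same-numbered arrays deviated in opposite directions (correlation -0.128), 2 were lower and 0 higher. Of the members without overlap, the 4 lower became 2 after quantile normalization, 3 with equal array medians and 4 to 11 when single arrays were dropped. The 2 higher became 0 after quantile normalization, 13 with equal array medians and 2 to 15 when single arrays were dropped. For the scalings the cause was not tested. Leaving out an array makes an order without overlap easier to meet. The median difference ran from -0.016 to 0.068 with 1 array left out. The mimic pair gap ratio of 2.12 and the control ratio of 0.863 were 1.50 to 2.55 and 0.804 to 1.24 under the other windows, scalings and nuclear sets, so that the control ratio changed sides of 1. The median member stood above 99.93% of nuclear measurements with the median filter. The 4 clusters given by identifier passed the threshold in 0 of 44 values under the alternatives fitted. Their sign says little about stability, as 20 of these values repeat the same difference by construction and for 3 of the 4 clusters the groups do not overlap. A pair gap cannot be formed without one of its own arrays, and leaving out an array of the other group does not change it.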

Other observations

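Genes of leukocytes and of other cell types were looked up after the low level of the neutrophil and promyelocyte markers had been seen. PTPRC, the pan-leukocyte surface phosphatase, had a mean log2 signal of 8.52, above 94.5% of nuclear measurements. LYZ, the lysozyme of myeloid cells, was at 11.1, above 99.7%, and the myeloid transcription factor SPI1 was at 7.38, above 84.5%. SRGN, from the same lookup, was at 9.55, above 98.0%. KRT18, a keratin of simple epithelia, was at 9.58, above 98.1%. KRT8, another such keratin, was at 9.98, above 98.8%, for its cluster on chromosome 12. A KRT8 cluster on chromosome 8 was at 8.59, above 94.9%. The tumour antigen gene PRAME was at 10.4, above 99.3%. The RNA-binding proteins IGF2BP1 and LIN28B were at 10.3 and 8.27, above 99.2% and 93.0%. These levels are means over all 4 arrays, and none of these genes passed the test between the groups.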
